A study of Mus musculus with 6 samples.

Results

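The genes described are 31 markers and signals of liver endothelium, read from ribosome-bound RNA of mouse liver. They were taken by gene symbol from the deposited table, with the transcripts of each symbol summed, and all 31 were present among 35970 symbols. By known role they were divided into 9 sinusoidal genes, 17 pan-endothelial genes and 5 angiocrine genes, the last coding for factors that endothelium sends to hepatocytes. Transgenic mice lacking Fah and carrying dCas9 (Fah-/-;dCas9+) had been given 7.5 µg/mL nitisinone, a drug that spares Fah-deficient hepatocytes, until injection. Each was then injected through the tail vein with 10 µg of a transposon plasmid that supplied Fah, ribosomal protein L10a fused to GFP, and a guide for CRISPR interference, together with the virus AAV8.TBG.PI.Cre.rBG, and nitisinone was stopped. The guide was non-targeting in 3 mice and directed at Neurl1b in another 3, and livers were collected 4 weeks later. Ribosomes were then pulled from 400 mg of liver through the GFP tag, a method called TRAP. The TBG promoter of the Cre virus is active in hepatocytes, the labels call the cells hepatocytes, and they name no promoter for the tagged ribosomal protein. No library of unpurified liver RNA was used here, so neither enrichment nor depletion of a cell type by the pull-down was measured.

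Sinusoidal endothelial cells line the liver capillaries. They have open pores and little basement membrane, and they clear waste molecules from blood through scavenger receptors such as the stabilins. All endothelium shares junction proteins, receptors for VEGF and angiopoietin, and a set of transcription factors of the ETS, SOX and GATA families. Liver endothelium also secretes WNT2, WNT9B and R-spondin 3, which maintain the gene program of hepatocytes near the central vein, and BMP2 and BMP6, which drive hepcidin production in hepatocytes.

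ETS factors such as ERG and FLI1 bind a short purine-rich motif in endothelial promoters, so the upstream sequences of 3 receptor genes that hold such a motif are shown. Promoter entries in the RefSeq table (GRCm38.p6) matched 17 of the 31 genes, with 19 start sites. The first 250 bases upstream of each start were searched on both strands for GGAAGT, which reads as ACTTCC on the opposite strand. The motif of GATA factors was searched as GATAA, which reads as TTATC on the opposite strand. GGAAGT occurred upstream of 6 genes (Egfl7, Eng, Fcgr2b, Flt1, Kdr and Tie1), in 7 of the 19 promoters, against 19.7% of 32851 mouse promoters of the same length. GATAA occurred for 2 genes, Egfl7 and Wnt2, against 22.6% of all promoters. A match describes letters and not a bound site. In the sequences below, capitals mark GGAAGT or its reverse complement. They are Eng at chr2:32646345-32646594 on the plus strand, Kdr at chr5:75978456-75978705 on the minus strand and Flt1 at chr5:147726012-147726261 on the minus strand, each given 5′ to 3′ on the strand of its gene and ending just before the start.
Eng: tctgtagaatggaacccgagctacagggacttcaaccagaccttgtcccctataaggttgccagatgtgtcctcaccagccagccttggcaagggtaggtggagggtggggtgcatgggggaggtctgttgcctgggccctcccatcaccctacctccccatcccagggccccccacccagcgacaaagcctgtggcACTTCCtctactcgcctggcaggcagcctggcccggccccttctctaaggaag
Kdr: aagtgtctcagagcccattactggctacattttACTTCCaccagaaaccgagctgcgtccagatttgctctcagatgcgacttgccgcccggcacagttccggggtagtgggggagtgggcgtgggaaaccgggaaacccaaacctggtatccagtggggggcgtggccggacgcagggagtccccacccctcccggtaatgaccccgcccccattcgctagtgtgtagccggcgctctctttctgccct
Flt1: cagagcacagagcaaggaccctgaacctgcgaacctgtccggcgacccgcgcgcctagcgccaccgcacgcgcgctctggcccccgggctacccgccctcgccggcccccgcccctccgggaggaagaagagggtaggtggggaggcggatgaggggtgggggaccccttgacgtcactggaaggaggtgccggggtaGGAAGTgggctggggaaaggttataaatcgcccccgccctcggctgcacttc

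Values are TPM, in which each transcript has a length-corrected share of 1000000 per library, so the number of reads behind them is unknown and no counting interval can be given. The targeted gene Neurl1b, a ubiquitin ligase gene, had 0.688 to 1.22 TPM with the non-targeting guide and 0.295 to 0.351 TPM with the Neurl1b guide. Hepatocyte markers filled 4.16% to 10.1% of each library, whereas the 31 endothelial genes together filled 0.00545% to 0.0104%. Of the 10598 genes that averaged 1 TPM or more, 2 passed an adjusted p of 0.05 in limma, both higher with the Neurl1b guide. Over all tested genes the median was 0.18 for the log2 fold change on the scale of log2(TPM + 1) and -0.02 after median-of-ratios scaling, so differences are to be read against that shift.

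Endothelial mRNA was detected at low levels in every library. Mean TPM over the 6 libraries ran from 0.101 for Wnt9b to 11.1 for Ramp2, and none of the 31 genes was at 0 in any library. In bulk samples such as these, fewer cells of a type and less RNA per cell cannot be told apart. Of these genes, 17 reached a mean of 1 TPM and were tested, and 14 did not. With the guide against Neurl1b, the mean TPM was higher for 30 of the 31 genes, against 71.8% of the 15038 genes with a mean of at least 0.1 TPM, a level that all 31 genes reach. The median ratio of the group means was 1.46 for the 31 genes and 1.16 over all of those genes. None of the 17 tested genes passed limma's adjusted threshold, which 0.0189% of all tested genes passed as higher and 0.0% as lower. The smallest adjusted p among them was 0.323, for Cldn5. At an unadjusted p below 0.05, 6 of the 17 were higher, beside 10.1% of all tested genes, and 0 were lower, beside 3.19%. The log2 fold change was above 0 for 16 of the 17, beside 74.0% of all tested genes. Groups did not overlap for 6 of the 17 as higher and for 1 as lower, beside 12.5% and 4.57%. Stab2, Sox18, Rspo3 and Bmp2 had a mean below 1 TPM in the controls and entered the test through their level in the other group, so these counts lend no support to a difference.

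**Figure D1:**
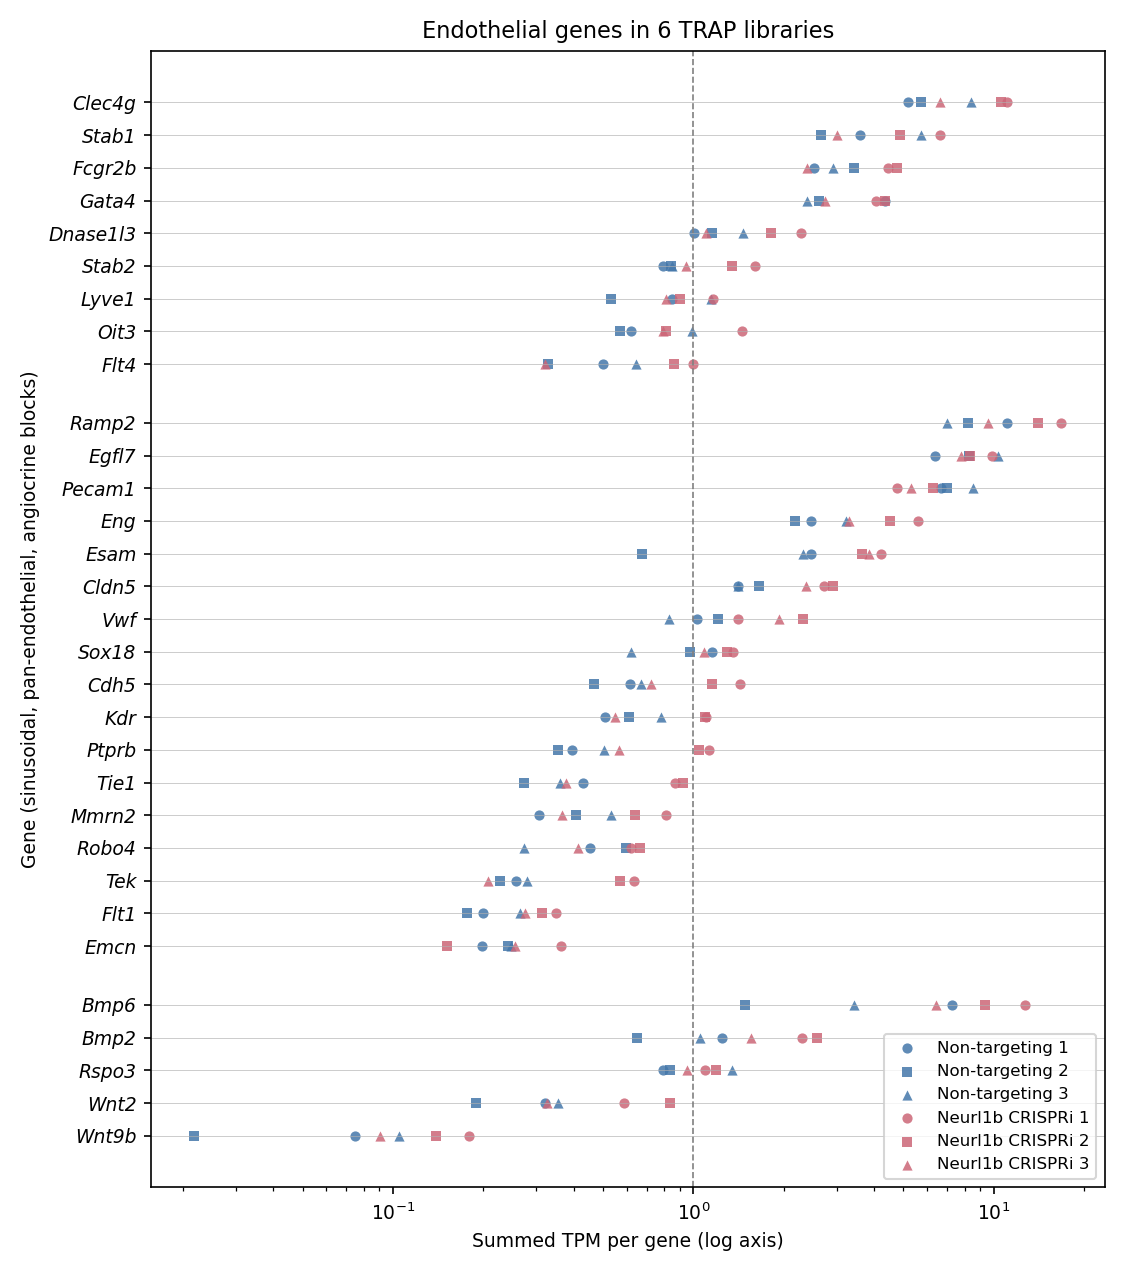
Summed TPM of each endothelial gene on a log axis, with 1 point per library. Blue points are the non-targeting mice, red points the Neurl1b CRISPRi mice, marker shapes give the mouse number, and the dashed line is the filter at 1 TPM. Red circles and squares (CRISPRi mice 1 and 2) lie to the right for most genes, while red triangles (CRISPRi mouse 3) often lie among the blue points.

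The difference between the groups was carried unequally by the mice. CRISPRi mouse 1 lay above all 3 control mice for 27 of the 31 genes, beside 38.6% of all genes with a mean of at least 0.1 TPM. CRISPRi mouse 2 did so for 23 genes, beside 34.6% of all genes. In CRISPRi mouse 3 only 10 of the 31 genes exceeded every control, beside 28.1% of all genes, 17 lay within the control range and 4 below it. This mouse was therefore close to the controls for most of the list. With median-of-ratios scaling the numbers above every control were 22, 19 and 4, beside 26.8%, 22.6% and 22.4% of all genes. CRISPRi mouse 3 then lay below every control for 6 of the 31 genes, beside 22.4% of all genes. CRISPRi mouse 1 was the highest of the 6 libraries for 20 genes and CRISPRi mouse 2 for 7, beside 25.6% and 15.1% of all genes. Non-targeting mice 3 and 1 were highest for 3 genes and 1 gene, beside 8.7% and 25.1%. The lowest library was non-targeting mouse 2 for 13 genes, mouse 1 for 8 and mouse 3 for 5, beside 36.7%, 9.13% and 31.6% of all genes. CRISPRi mice 1, 2 and 3 were lowest for 1, 1 and 3 genes, beside 9.06%, 4.54% and 8.87%. Expressed relative to the mean over the 6 libraries, the median gene stood at 0.75, 0.72 and 0.85 in non-targeting mice 1 to 3 and at 1.47, 1.27 and 0.86 in CRISPRi mice 1 to 3. The medians over all genes were 1.07, 0.81 and 0.81 in the controls and 1.08, 1.07 and 1.02 in CRISPRi, so in control mice 2 and 3 the endothelial genes lay near all genes. With median-of-ratios scaling the endothelial medians were 0.68, 0.87 and 1.01 in the controls and 1.36, 1.20 and 0.84 in CRISPRi, where mouse 3 lay below control mice 2 and 3. Without CRISPRi mouse 3, the median log2 fold change of the tested endothelial genes was 0.49, against 0.32 with all mice, and still none passed in limma (smallest adjusted p = 0.394).

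Among sinusoidal genes, all 9 had a higher mean with the Neurl1b guide, beside 71.8% of all genes with a mean of at least 0.1 TPM. Only Stab2 had groups that did not overlap, beside 13.3% of those genes as higher. The median ratio of the group means was 1.40 and the median log2 fold change of the 6 tested genes was 0.28, which became 0.11 under median-of-ratios scaling. In the sentences that follow, values are listed for non-targeting mice 1, 2 and 3 and then for CRISPRi mice 1, 2 and 3. Clec4g, a C-type lectin gene of sinusoidal cells, had 5.17, 5.71 and 8.41 TPM against 11.1, 10.6 and 6.61 TPM. The control mouse 3 exceeded CRISPRi mouse 3, and the log2 fold change of 0.48 (SE 0.25, limma adjusted p = 0.407) did not pass.

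The stabilin genes code for large scavenger receptors of sinusoidal cells. Stab2, which takes up hyaluronan, had 0.792, 0.841 and 0.850 TPM against 1.60, 1.34 and 0.948 TPM. Its control values were close together and all CRISPRi values lay above them, yet its log2 fold change of 0.32 (SE 0.17, limma adjusted p = 0.408) did not pass. Stab1, which some macrophages also express, had 3.58, 2.66 and 5.72 TPM against 6.63, 4.88 and 3.01 TPM, and the groups overlapped. Fcgr2b, the inhibitory receptor that clears immune complexes in sinusoids, had 2.53, 3.43 and 2.91 TPM against 4.45, 4.75 and 2.40 TPM. The lowest of these 6 values belonged to CRISPRi mouse 3 although mice 1 and 2 of that group had the highest.

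Dnase1l3, a secreted nuclease gene, had 1.01, 1.15 and 1.46 TPM against 2.28, 1.81 and 1.10 TPM, which overlapped in the same mouse. Gata4, a transcription factor that sets sinusoidal identity and is also found in stellate cells, had 4.34, 2.61 and 2.38 TPM against 4.05, 4.33 and 2.73 TPM. Its highest value was in a control, non-targeting mouse 1. Lyve1, Oit3 and Flt4 stayed below the filter, with means of 0.610 to 0.900 TPM, and all 3 overlapped between the groups. Lyve1, a hyaluronan receptor gene shared with lymphatic vessels and some macrophages, had a ratio of group means of 1.14, the smallest of the sinusoidal genes, whereas Flt4, the VEGF receptor of lymphatic and sinusoidal endothelium, had 1.48.

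Pan-endothelial genes had a median ratio of group means of 1.54. Of the 17, 16 had a higher mean with the Neurl1b guide, beside 71.8% of all genes with a mean of at least 0.1 TPM. In 7 of them the groups did not overlap and CRISPRi was higher, and in Pecam1 they did not overlap and CRISPRi was lower. Over all 31 endothelial genes these counts were 9 higher and 1 lower, beside 13.3% and 4.3% of the 15038 genes. After median-of-ratios scaling 3 higher and 1 lower remained apart, beside 8.44% and 9.36%. With that scaling the mean was higher in CRISPRi for 26 of the 31 genes, beside 48.9% of all genes. The others of the 31 were Lyve1, Pecam1, Egfl7, Emcn and Rspo3. The 3 higher genes were Cldn5, Esam and Bmp2, and the lower gene was Pecam1.

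Junction genes were among those without overlap. Cldn5, which codes for the tight junction protein claudin-5, had 1.41, 1.65 and 1.41 TPM against 2.73, 2.92 and 2.37 TPM. All CRISPRi values exceeded all control values, the ratio of means was 1.79, and limma gave a log2 fold change of 0.56 (SE 0.16, unadjusted p = 0.00757, adjusted p = 0.323). Esam, an adhesion molecule gene of endothelial junctions and platelets, had 2.46, 0.676 and 2.32 TPM against 4.21, 3.63 and 3.83 TPM. Non-targeting mouse 2 was far below the other libraries here, and limma gave a difference of 0.87 in log2 units (SE 0.28, adjusted p = 0.339). Cdh5, the VE-cadherin gene and a defining marker of endothelium, lay below the filter at 0.617, 0.467 and 0.671 TPM against 1.43, 1.15 and 0.724 TPM. CRISPRi mice were all above the controls. An exact permutation test, two-sided, reached its minimum for 3 mice a group, p = 0.1.

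Receptor genes of the vascular growth pathways were low. Eng, the endoglin gene, whose product is a co-receptor for BMP9 and TGF-beta, had 2.46, 2.17 and 3.23 TPM against 5.60, 4.51 and 3.29 TPM. Its groups did not overlap, by a narrow margin between non-targeting mouse 3 and CRISPRi mouse 3, and limma gave a difference of 0.58 in log2 units (SE 0.22, adjusted p = 0.344). The VEGF receptor genes Kdr and Flt1 and the angiopoietin receptor genes Tek and Tie1 had means of 0.263 to 0.773 TPM. Of these, Flt1 alone did not overlap between the groups, with 0.1999, 0.176 and 0.264 TPM against 0.348, 0.314 and 0.274 TPM. Tie1 and Tek had ratios of group means of 2.05 and 1.85, but in CRISPRi mouse 3 their levels of 0.378 and 0.208 TPM were no higher than the highest control. Ptprb, the phosphatase gene VE-PTP that acts on the Tek receptor, had 0.395, 0.353 and 0.505 TPM against 1.12, 1.05 and 0.563 TPM, with no overlap.

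Ramp2, which codes for a co-receptor of adrenomedullin in vessels, had the highest level of the 31 genes. Its values were 11.02, 8.20 and 6.998 TPM against 16.8, 14.0 and 9.56 TPM, and they overlapped because CRISPRi mouse 3 lay below non-targeting mouse 1. Vwf, the von Willebrand factor gene of larger vessels, had 1.03, 1.21 and 0.831 TPM against 1.41, 2.31 and 1.92 TPM. Here CRISPRi mouse 1 was the lowest of its group, unlike in most other genes, and the log2 fold change of 0.50 (SE 0.18, limma adjusted p = 0.344) did not pass. Egfl7, a secreted vessel matrix gene, had 6.34, 8.26 and 10.3 TPM against 9.88, 8.32 and 7.80 TPM, with a ratio of 1.04. The log2 fold change of 0.07 turned to -0.15 once median-of-ratios scaling was used.

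Sox18, a transcription factor gene of endothelial development, had 1.15, 0.976 and 0.621 TPM against 1.36, 1.29 and 1.08 TPM, which overlapped. Mmrn2, Robo4 and Emcn, which code for a matrix protein, a guidance receptor and a sialomucin, had means of 0.243 to 0.510 TPM and overlapping groups. Their ratios of group means were 1.46, 1.28 and 1.12.

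Pecam1, the gene of the junction protein CD31, ran against the rest when all its transcripts were summed. It had 6.68, 6.97 and 8.49 TPM against 4.77, 6.29 and 5.28 TPM, a lower level in every CRISPRi mouse (log2 fold change -0.38, SE 0.18, limma adjusted p = 0.394). Most of this signal, 82.7%, came from transcript ENSMUST00000184424.2, which GENCODE M21 annotates as a retained-intron RNA of 2142 nt. That transcript had 5.94, 6.28 and 7.55 TPM against 2.998, 4.77 and 4.29 TPM. The transcripts of Pecam1 annotated as protein coding summed to 0.743, 0.695 and 0.943 TPM against 1.77, 1.51 and 0.992 TPM. Their direction was thus opposite to that of the gene total, with no overlap between the groups, and their log2 fold change was 0.42 in a fit of protein-coding transcripts (limma adjusted p = 0.361), chosen after the values were seen.

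The transcript class mattered for few other genes. Protein-coding transcripts held at least 95% of the summed TPM for 23 of the 31 genes and less than 50% for 5, namely Stab1, Stab2, Pecam1, Vwf and Ramp2. For Ramp2, 72.8% of the signal was assigned to ENSMUST00000128260.9, a transcript annotated as subject to nonsense-mediated decay, and the coding share was 10.1%. In Vwf only 2.75% was coding, and a 456-nt processed transcript, ENSMUST00000146264.2, held 63.4%. For Stab1, the retained-intron transcript ENSMUST00000159480.8 held 65.0%. Its coding transcripts summed to 1.25, 0.371 and 0.778 TPM against 0.256, 0.219 and 0.345 TPM, lower with the Neurl1b guide, whereas its longest coding transcript, ENSMUST00000036618.14 of 7999 nt, had means of 0.0355 and 0.192 TPM. The coding difference came from a 413-nt fragment, ENSMUST00000160024.8, at 1.20, 0.357 and 0.730 TPM against 0, 0 and 0.172 TPM. kallisto divides reads among overlapping transcripts by estimation, so levels of single transcripts this low are uncertain. Over protein-coding transcripts alone, 29 of the 31 genes had a higher mean in CRISPRi. Among all 13029 genes with at least 0.1 TPM in that version of the values, 9847 did. Of the 31, 8 did not overlap as higher and 1 (Stab1) as lower, beside 14.0% and 3.9% of those 13029 genes.

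**Figure D2:**
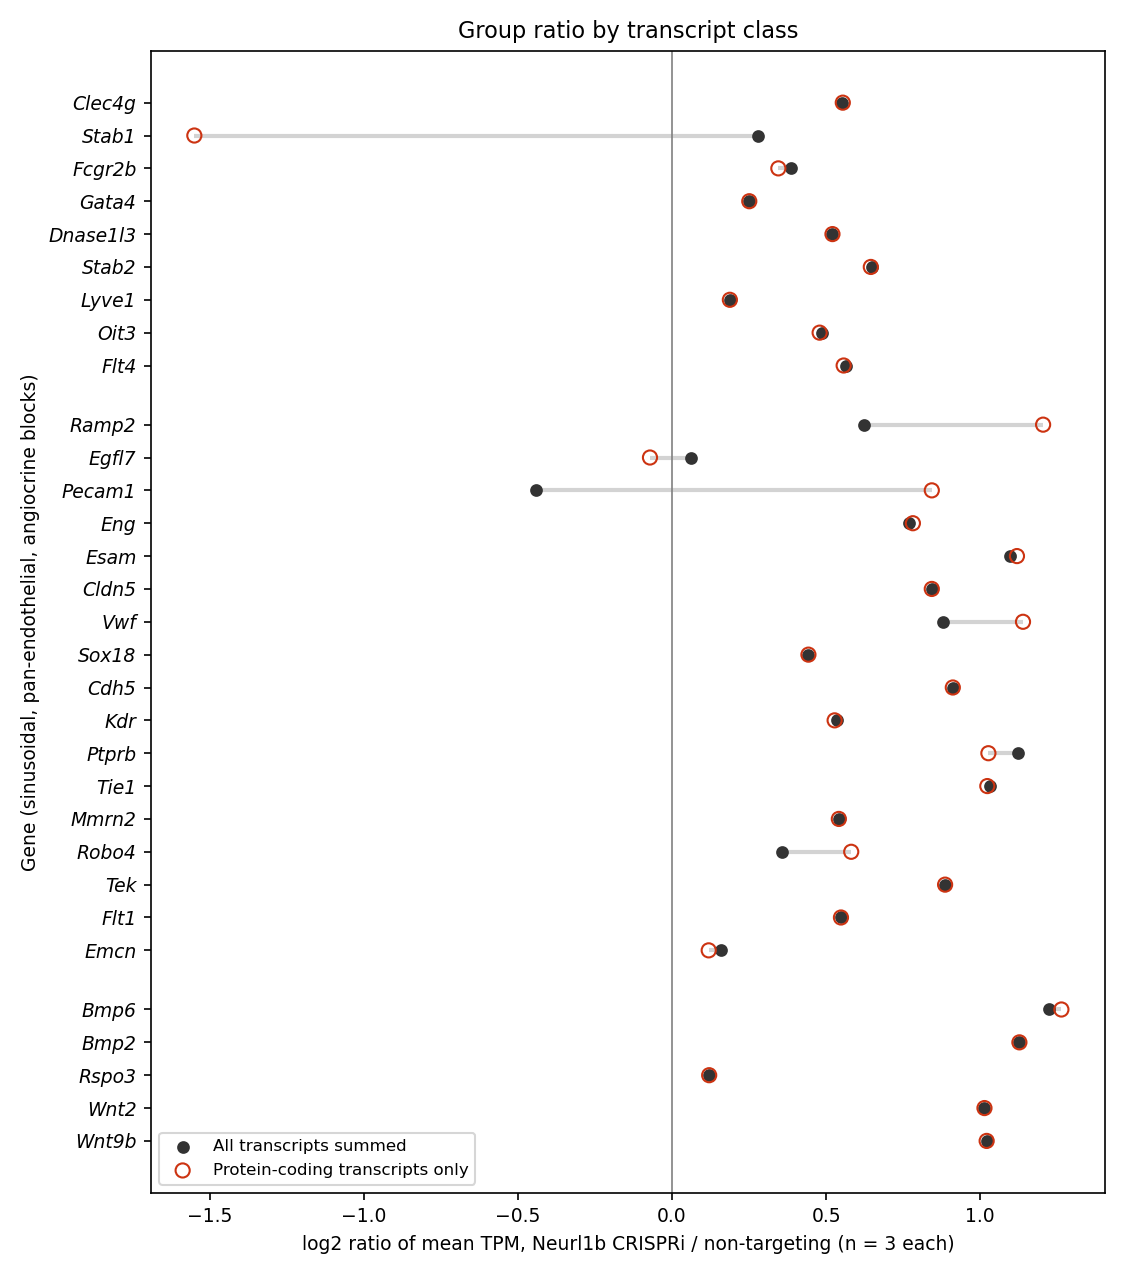
The log2 ratio of mean TPM (Neurl1b CRISPRi over non-targeting, 3 mice each) for each endothelial gene, with all transcripts summed (filled points) and with protein-coding transcripts only (open circles). Pecam1 moves from left of 0 to right of 0 and Stab1 from right to left. Egfl7 also crosses 0, from 0.060 to -0.071, while most genes keep their place.

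Angiocrine genes had the largest median ratio of the 3 groups, 2.03 over the 5 genes. That median was the ratio of Wnt9b, at a mean of 0.101 TPM. With non-targeting mouse 2 left out, the ratios of Bmp2, Wnt2, Wnt9b and Rspo3 were 1.87, 1.72, 1.52 and 1.01. With mouse 1 of that group left out, they were 2.52, 2.14, 2.15 and 0.988. With all mice, Bmp6 and Bmp2, the ligand genes for hepcidin induction, had the largest ratios of the 5 genes. Bmp6 had 7.26, 1.48 and 3.41 TPM against 12.6, 9.31 and 6.44 TPM. Its ratio of group means was 2.34, which became 1.77 with non-targeting mouse 2 left out and 3.87 with mouse 1 of that group left out. Non-targeting mouse 1 lay above CRISPRi mouse 3, and limma gave a difference of 1.18 in log2 units (SE 0.42, adjusted p = 0.344), or 0.75 without non-targeting mouse 2 (adjusted p = 0.766). Bmp2 had 1.24, 0.650 and 1.05 TPM against 2.29, 2.58 and 1.56 TPM. All its CRISPRi values exceeded all control values, with a log2 fold change of 0.66 (SE 0.20, limma adjusted p = 0.330).

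The WNT ligand genes Wnt2 and Wnt9b, whose products act on hepatocytes around the central vein, were below the filter. Wnt2 had 0.322, 0.188 and 0.355 TPM against 0.586, 0.834 and 0.326 TPM, so CRISPRi mouse 3 was again within the control range. Wnt9b had 0.0746, 0.0218 and 0.105 TPM against 0.178, 0.139 and 0.0906 TPM, levels whose precision is unknown. Rspo3, which codes for an amplifier of WNT signalling made by central vein endothelium and also by stellate cells, had 0.791, 0.836 and 1.35 TPM against 1.09, 1.19 and 0.949 TPM. Its group means, 0.991 ± 0.308 and 1.08 ± 0.121 TPM (SD, n = 3 each), differed by less than the spread between mice.

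Calls depended on a control mouse. Without non-targeting mouse 1, Cldn5, Esam, Bmp2 and Bmp6 passed in limma as higher (adjusted p of 0.0380, 0.0479, 0.0421 and 0.0273), 4 of 17 tested endothelial genes. In that fit 23.1% of all genes passed as higher and 2.24% as lower, so the share of endothelial genes was close to that of all genes. In each fit that left out any other mouse, 0 of these genes passed. All genes passed as higher at shares of 0.0282% and 0.0% without non-targeting mice 2 and 3, and at 0.0379%, 0.0379% and 0.0189% without CRISPRi mice 1, 2 and 3.

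Genes of liver that receive the angiocrine signals were read from a list of the pathway. For BMP, 24 of 27 listed receptors, transducers and targets were tested. None passed in limma, and the median log2 fold change was 0.28, beside 0.18 for all genes. At an unadjusted p below 0.05, 2 of the 24 were higher and 0 lower, beside 10.1% and 3.19% of all tested genes. The share of higher genes was thus close to that of all genes. The 2 were Fkbp1a, which codes for a binding protein that restrains BMP type I receptors, and Hjv, the hemojuvelin co-receptor gene, with log2 fold changes of 0.79 (SE 0.28) and 0.44 (SE 0.19). Hamp, the hepcidin gene, had 9579, 685 and 6575 TPM against 7141, 8254 and 7588 TPM. Non-targeting mouse 2 was thus far below the other 5 libraries, and the log2 fold change of 1.12 (SE 0.83, limma adjusted p = 0.508) had a wide error. The same mouse had the lowest Bmp6 and Bmp2. Smad7, a feedback inhibitor gene induced by BMP, had 5.30, 0.925 and 2.39 TPM against 4.88, 4.3999 and 4.11 TPM. Id1, chosen after its values were seen, had 7.08 TPM in that mouse against 66.9 to 114 TPM in the others. Non-targeting mouse 2 was also the lowest library for 15 of the 26 listed BMP genes with at least 0.1 TPM and for 36.7% of all genes. Bmp6 was highest in CRISPRi mouse 1, while Hamp, Id1 and Smad7 were highest in non-targeting mouse 1. Non-targeting mouse 1 was the highest library for 15 of the 26 listed BMP genes with at least 0.1 TPM and for 25.1% of all genes.

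**Figure D3:**
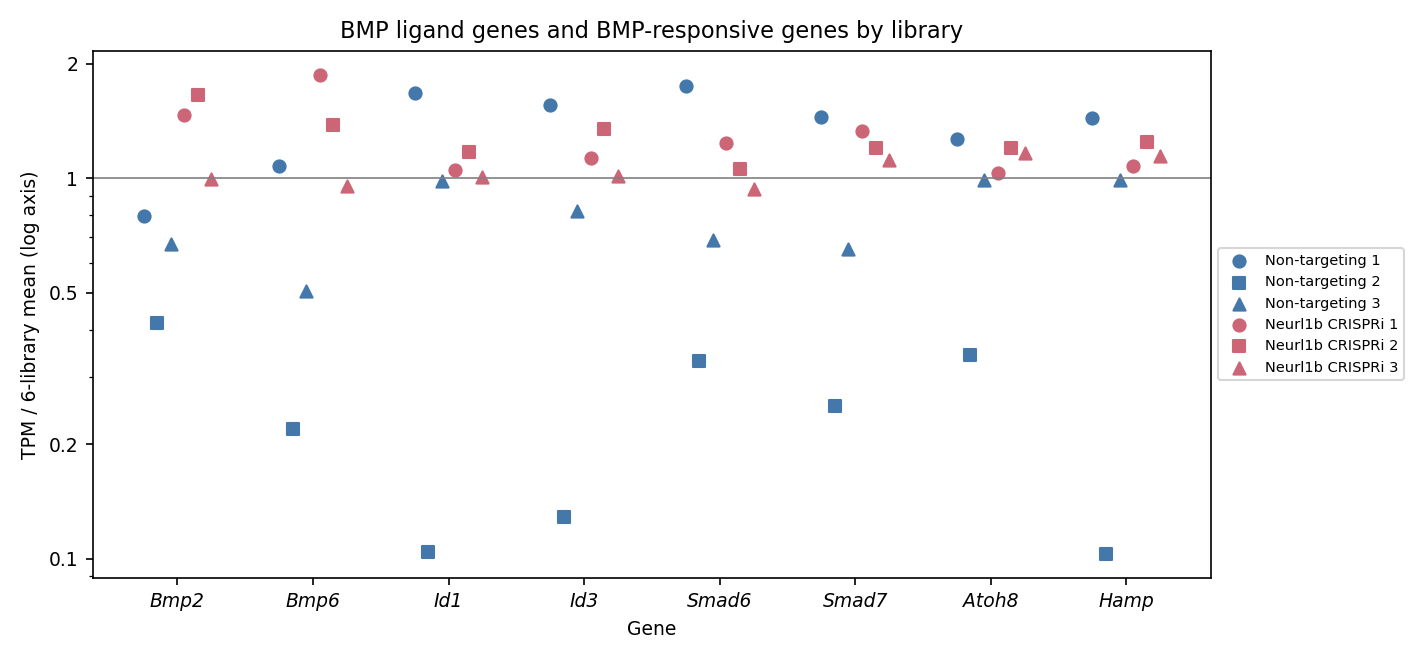
TPM of the BMP ligand genes Bmp2 and Bmp6 and of BMP-responsive genes in each library, divided by the mean over the 6 libraries, on a log axis. Blue and red points are non-targeting and Neurl1b CRISPRi mice, and marker shapes give the mouse number. Non-targeting mouse 2 (blue squares) is the lowest library for all 8 genes. Of these, Id1, Id3, Smad6 and Atoh8 were picked outside the rule for naming genes. Among the 26 listed BMP genes with at least 0.1 TPM this mouse is lowest for 15, and among all genes for 36.7%.

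For WNT, 27 of 33 listed receptors, transducers and targets were tested and none passed in limma. At an unadjusted p below 0.05, 1 was higher (Gulo) and 2 were lower (Rgn and Slc1a2), beside 10.1% and 3.19% of all tested genes. The median log2 fold change was 0.12. Glul, the glutamine synthetase gene and a WNT target of pericentral hepatocytes, had 171, 164 and 170 TPM against 118, 162 and 73.9 TPM. It was lower in every CRISPRi mouse than in any control (log2 fold change -0.58, SE 0.26, limma adjusted p = 0.382), while the means of Wnt2 and Wnt9b were higher. The pericentral genes Cyp2e1 and Oat overlapped between the groups, with log2 fold changes of -0.41 (SE 0.21) and 0.66 (SE 0.42).

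Genes of VEGF, angiopoietin, BMP and related ligands went both ways. Of 16 listed, 7 were tested, and none passed in limma. At an unadjusted p below 0.05, 2 were higher and 2 lower, beside 10.1% and 3.19% of all tested genes. Adm, the adrenomedullin gene whose receptor includes the Ramp2 product, had 0.721, 0.584 and 0.400 TPM against 1.81, 1.49 and 1.83 TPM (log2 fold change 0.79, SE 0.16, limma adjusted p = 0.259). Every control was below 1 TPM, so Adm entered the test through its level in the other group. The count of higher genes in this list therefore lends no support to a difference. Angpt2, the angiopoietin 2 gene, had a log2 fold change of 0.52 (SE 0.19) with no overlap. Vegfb, a ligand gene for the Flt1 receptor, had 17.6, 36.5 and 30.9 TPM against 15.6, 14.3 and 18.1 TPM, which overlapped. Vegfa had group means of 7.18 and 9.07 TPM, with no overlap and an unadjusted p of 0.129 in limma.

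Other endothelial genes, outside the 31, showed a like order of the mice. Of 40 listed, 37 had a mean of at least 0.1 TPM. The mean was higher with the Neurl1b guide for 34 of these, beside 71.8% of all genes, with a median ratio of 1.63. CRISPRi mice 1, 2 and 3 lay above every control for 29, 28 and 12 of the 37, beside 38.6%, 34.6% and 28.1%. With median-of-ratios scaling these counts were 24, 19 and 9, beside 26.8%, 22.6% and 22.4%. None passed in limma. At an unadjusted p below 0.05, 6 of 17 tested were higher and 1 lower, beside 10.1% and 3.19% of all tested genes. Plvap, the gene of the protein that bridges endothelial pores, had 2.59, 1.99 and 3.49 TPM against 7.50, 7.26 and 3.13 TPM, high in CRISPRi mice 1 and 2 and within the control range in mouse 3. Aqp1, a water channel gene that bile duct cells share, had 5.02, 3.20 and 7.05 TPM against 13.3, 10.7 and 6.69 TPM. Klf2, a flow-responsive transcription factor gene, did not overlap, with a ratio of 1.74. The list also holds Ctsl and Cd36, which hepatocytes express, at group means of 537 and 971 TPM for Ctsl. S1pr1, a sphingosine phosphate receptor gene, had group means of 11.1 and 4.72 TPM, with 20.7 TPM in non-targeting mouse 2, and the groups overlapped.

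Markers of other liver cells also differed in mean between the groups, although none of the 13 stellate and 14 macrophage markers tested passed in limma (smallest adjusted p = 0.259 and 0.310). Stellate and fibroblast markers had a higher mean with the Neurl1b guide for 18 of 18 genes, 11 without overlap, with a summed level of 46.02 to 86.0 TPM in the controls and 107 to 133 TPM in CRISPRi. Over all genes with at least 0.1 TPM these shares were 71.8% and 13.3%. Kupffer cell and macrophage markers had a higher mean for 17 of the 17 genes with at least 0.1 TPM, 6 without overlap, with a summed level of 103 to 189 TPM in the controls and 152 to 214 TPM in CRISPRi. With median-of-ratios scaling the mean was higher for 18 of 18 stellate markers, 6 without overlap, and for 12 of 17 macrophage markers, 2 without overlap, beside 48.9% and 8.44% of all genes. The summed level of the 31 endothelial genes was 54.5 to 68.9 TPM in the controls and 66.9 to 104 TPM in CRISPRi. These ranges show that the stellate sums did not overlap between the groups, while the macrophage and endothelial sums did. Dcn and Reln, stellate genes, had ratios of group means of 2.16 and 2.21, and Csf1r, the macrophage growth factor receptor gene, had 2.06.

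The endothelial and macrophage markers differed in how they ranked the CRISPRi mice. CRISPRi mouse 3 was above every control for 12 of 17 macrophage markers and 11 of 18 stellate markers, but for 10 of 31 endothelial genes and 1 of 9 sinusoidal genes, beside 28.1% of all genes. With median-of-ratios scaling these counts were 7, 7, 4 and 0, beside 22.4% of all genes. The ratio of summed sinusoidal to summed macrophage TPM was 0.187, 0.132 and 0.129 in the controls and 0.157, 0.1996 and 0.0919 in CRISPRi, so it was lowest in CRISPRi mouse 3 and highest in CRISPRi mouse 2. That of summed pan-endothelial to summed stellate TPM was 0.529, 0.727 and 0.443 in the controls and 0.435, 0.375 and 0.363 in CRISPRi. Every CRISPRi mouse was thus below every control there, by a narrow margin between CRISPRi mouse 1 and non-targeting mouse 3. Hepatocyte markers had a median ratio of group means of 0.889, with 6 of 17 higher in CRISPRi (0 of 17 with median-of-ratios scaling), and summed to 46875 to 101413 TPM in the controls and 41648 to 56811 TPM in CRISPRi. Lymphocyte markers had a median ratio of 0.945, with 5 of 11 higher in CRISPRi, and cholangiocyte markers 1.52, with 6 of 10 higher. Over all genes 71.8% were higher. The cholangiocyte ratios ran from 0.699 to 2.35, and the ratio of their summed TPM was 1.06. The lymphocyte genes Cd2 and Cd79a were at 0 in 2 libraries each. No defining marker of macrophages or stellate cells was at 0 in any library. The part of cell composition and of RNA from other cells in the endothelial difference was not tested.

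**Figure D4:**
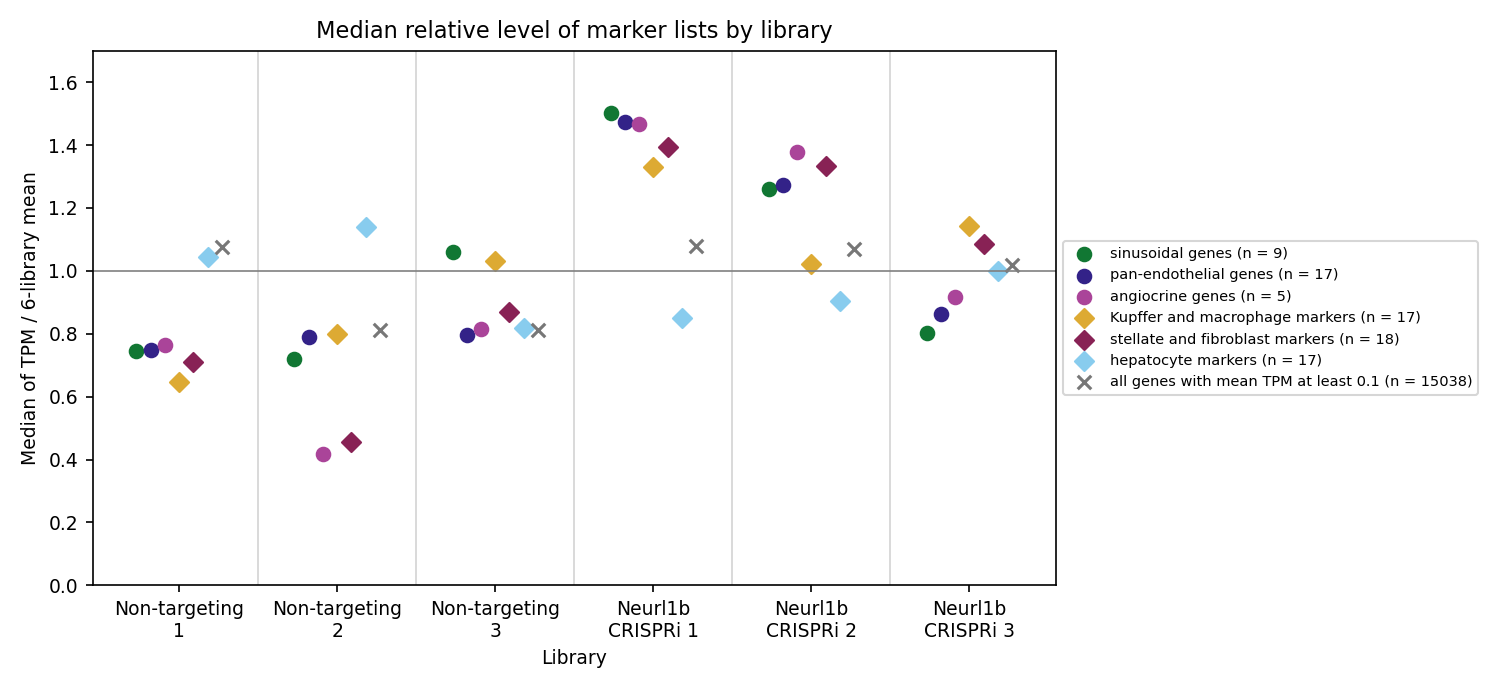
Median over each list of a gene's TPM divided by its mean over the 6 libraries, for each library. Circles are the endothelial groups, diamonds are markers of other cell types, and crosses are all genes that average 0.1 TPM or more. The endothelial circles lie at 1.26 or above in CRISPRi mice 1 and 2 and at 0.92 or below in CRISPRi mouse 3, where macrophage and stellate markers lie at 1.14 and 1.09.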

How the data were processed

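One table deposited by the authors gives TPM of 117486 transcripts and names the gene of each. The submitters' processing notes list kallisto and mm39. Its version, transcript set and filters were not given in the sources used here. Every library adds up to about 1000000. Transcripts were summed by symbol, and 168 without a symbol, 116 to 143 TPM per library, were left out. Genes averaging 1 TPM or more were tested with limma 3.58.1 (R 4.3.3) on the log2(TPM + 1) scale, with a trended prior, two-sided, no covariate and Benjamini-Hochberg adjustment over 10598 genes. Changes of low genes are understated on it, so ratios of mean TPM are given beside it. The code was tested on simulated data. Samples were grouped by the guide in their titles, and since each library is a separate mouse, p-values measure the spread between mice.

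Transcript classes come from GENCODE M21 (GRCm38), matched by identifier without version, in which 99.0% of transcripts and 147 of 151 endothelial ones were found. Promoter sequences are from RefSeq on GRCm38.p6, another build than the table's. Their coordinates are on that build, and none are given on mm39. The genes and lists were chosen with earlier results of these data known. Named are all 31 genes, with values per library for those with a mean of at least 1 TPM, for the angiocrine genes and for up to 6 others whose groups did not overlap. From each further list the rule takes up to 4 tested genes with the smallest p and 4 with the highest level. Not every gene it takes is reported here. Other settings tried were pseudocounts of 0.1 and 5, filters at 0 and at 5 TPM, median-of-ratios scaling, TPM rescaled without abundant genes, a constant prior, a replicate block and leaving out each mouse. Restricting to protein-coding transcripts, or to the longest one, was added after seeing the data.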

Additional observations from a re-analysis of the deposited data

How the results depend on the processing

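No setting that kept all 6 mice gave an endothelial gene past limma's adjusted threshold, and leaving out each mouse gave 0 to 4. Over all genes tested the count was 2 and became 0 with a pseudocount of 5, with no filter or with the longest coding transcript, 1 with a mean of at least 5 TPM or with coding transcripts only, and 0 to 2673 with a mouse left out. The median log2 fold change of pan-endothelial genes was 0.53, and 0.67, 0.22, 0.24, 0.070, 0.35 and 0.70 with a pseudocount of 0.1, a pseudocount of 5, no filter, a mean of at least 5 TPM, median-of-ratios scaling and the longest coding transcript. That of angiocrine genes was 0.66, and 1.07, 0.25, 0.29 and 1.18 in the first 4 of these. With a mouse left out they spanned 0.41 to 0.55 and 0.54 to 0.93. The median of sinusoidal genes, 0.28, spanned 0.15 to 0.47 with a mouse left out. It was 0.12, 0.48 and 0.11 with a pseudocount of 5, a mean of at least 5 TPM and median-of-ratios scaling. These medians do not all cover the same genes. With a mean of at least 5 TPM only Bmp6 remained of the angiocrine and only Clec4g of the sinusoidal genes. The pan-endothelial genes left there were Egfl7, Pecam1 and Ramp2, and without a filter all 31 genes entered. Rspo3 fell below the filter without non-targeting mouse 3, and Stab2 without CRISPRi mouse 1. Of the 14 genes below the filter, 3 did not overlap as higher, beside 15.3% of all 4440 genes from 0.1 to 1 TPM, and 0 with median-of-ratios scaling (9.95%). With a mouse left out, which makes overlap rarer for all genes, it was 3 to 11 (18.5% to 31.9%), 6 without non-targeting mouse 3 (21.4%) and 11 when CRISPRi mouse 3 was dropped (26.2%). Signs changed for Egfl7 (-0.15 with median-of-ratios scaling, -0.051 with coding transcripts, -0.090 and -0.018 when mouse 1 of the non-targeting or of the CRISPRi group was left out, up to 0.22 without non-targeting mouse 3), for Rspo3 (-0.059 with median-of-ratios scaling and -0.00028 without non-targeting mouse 1, up to 0.12 without CRISPRi mouse 3) and for Pecam1 (0.42 with coding transcripts); the cause was not tested.

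The labels number the mice and state no pairing between the groups. Correlations of deviations between same-numbered mice were 0.061, -0.096 and -0.28, and between differently numbered mice they ran from -0.17 to 0.22. Deviations of 3 mice from their group mean sum to 0, so these correlations cannot decide whether the numbers pair mice. With the mouse number as a replicate block, 0 endothelial genes and 2 genes in all passed. Because TPM keep no depth, the precision of the 14 genes below 1 TPM is unknown.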
